A study of Mus musculus with 6 samples.

Results

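The genes described here are markers of T, B and natural killer (NK) lymphocytes, measured in liver tumours and non-tumorous liver of aged mice. The list held 34 genes, chosen by name and not by their values: 10 of the T cell receptor complex and its first signalling steps, 8 of T cell costimulation, checkpoints and subsets, 8 of cytotoxic and NK cells, 6 of B and plasma cells, and 2 shared by leukocytes. A gene was included where the array annotation gave a feature exactly 1 gene symbol equal to the list's, which held for 30 of the 34, out of 20261 genes in all. Of these, 27 passed a filter on dim features and were tested, and Cd3g, Cxcr6 and Klrk1 fell below it. Lck, the kinase that starts T cell receptor signalling, and Ctla4, an inhibitory receptor, had no such feature. Foxp3, the regulatory T cell factor, and Klrb1c, which encodes NK1.1, occurred only on features annotated to several genes, which name none.

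Mature T cells read antigen through a receptor that signals through the CD3 chains, and the coreceptors CD4 and CD8 divide them into helper and killer cells. NK cells and CD8 T cells kill with perforin and granzymes, while B cells signal through the CD79 pair and become antibody-secreting plasma cells. Mouse liver is known for its many resident NK, NKT and CXCR6-positive T cells, which patrol the sinusoids beside the Kupffer cells.

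The groups were hepatocellular carcinoma (tumour 405, 483 and 616) and non-tumorous liver (non-tumour 405, 483 and 623), with 1 array each and 3 per group. All 6 samples came from SRSF3HKO mice, in which hepatocytes lack the splicing factor SRSF3, on the C57BL/6 background and aged 24 months, with no treatment. Liver with intact Srsf3 was not analysed here, so any difference lies between tumour and non-tumour within the knockout, and no source used here names the Cre driver. Neither separate animals within a group nor a shared animal behind a shared number is stated in the labels, so the p-values measure only the spread between these samples, which may be technical.

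Values are log2 of the quantile-normalized intensity plus 16, so that folds of dim genes are understated, and differences are tumour minus non-tumour. Hepatocyte markers were bright on every array: the 7 measured of 10 lay between 11.58 and 13.34. Srsf3 lay between 9.43 and 10.84, but with knockout samples in both groups this checks no label. Non-tumour 623 stood apart in sex-linked RNA, with Xist at 5.19 and the Y-linked Eif2s3y at 8.75, where the other 5 arrays had Xist at 10.60 or more and Eif2s3y at 5.13 or less. Deposited median intensities ran from 83.6 in tumour 405 to 197 in non-tumour 623, which is why the arrays were brought to one distribution. The number of arrays limits the precision.

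Whole-tissue RNA of the tumours was set against that of non-tumorous liver to ask whether lymphocyte genes differ in the carcinomas. No member passed the test: of 27 tested, 0 were higher and 0 lower in tumour (limma, adjusted p from 0.917 to 0.983), as were 0% of all 16810 genes in each direction. At an unadjusted p under 0.05, 0 members were higher, beside 2.68% of all genes, and 1 was lower, beside 0.999% of all genes. That member was Tox. Tumour and non-tumour arrays overlapped for all 27 members, where 3.95% of all genes were higher and 3.85% lower without overlap. The point estimates were below 0 for 22 of 27 members, beside 56.2% of all genes, and their median was -0.18, beside -0.05 over all genes. This lean was not particular to lymphocyte genes: 13 of 14 macrophage and Kupffer cell markers were below 0, with a median of -0.76. So were 7 of 8 dendritic cell (-0.26) and 6 of 7 hepatocyte markers (-0.15), but only 4 of 10 neutrophil (0.06) and 4 of 10 endothelial markers (0.06). In bulk tissue, fewer cells of a type and less RNA per cell cannot be told apart.

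**Figure D1:**
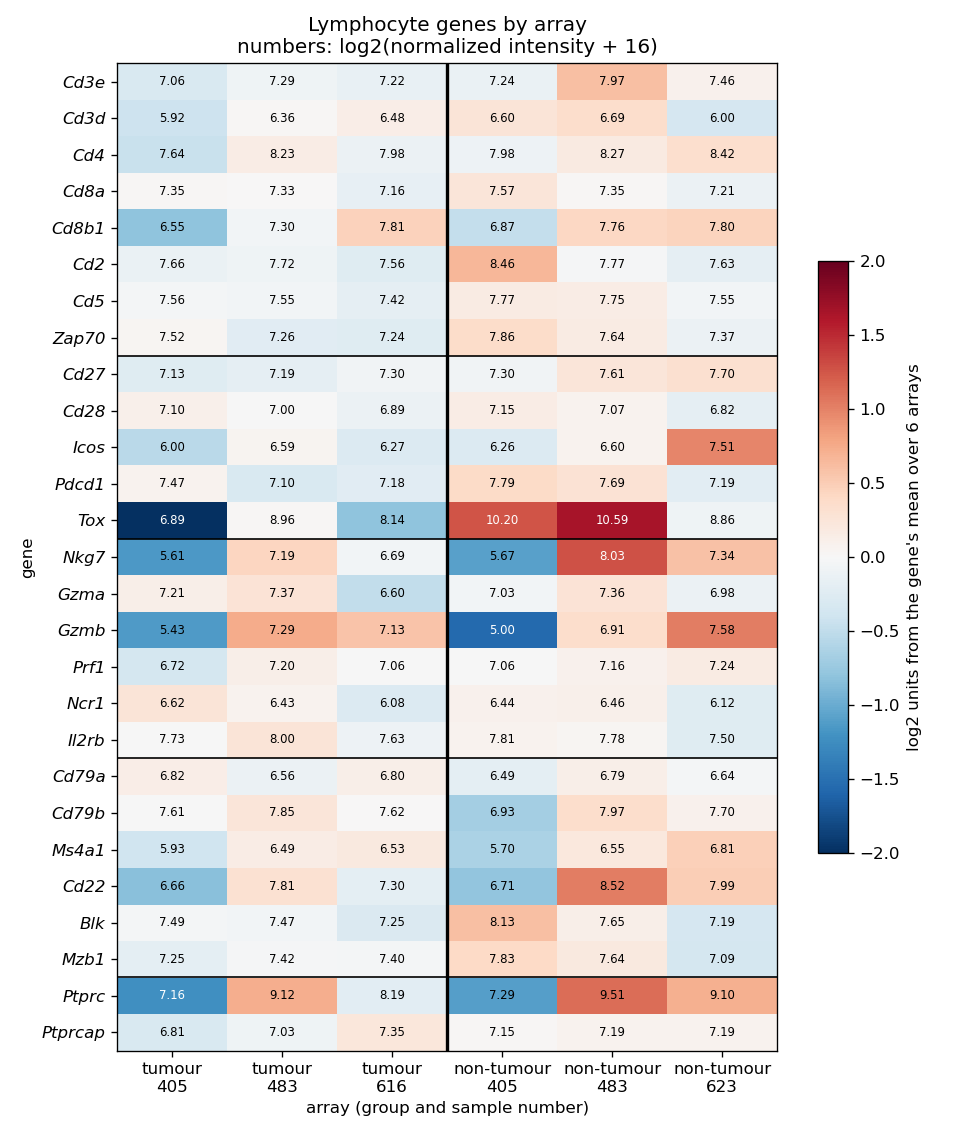
Each row is 1 of the 27 tested lymphocyte genes, each column 1 array (tumour left, non-tumour right), the printed number is log2(normalized intensity + 16) and the colour is the distance from the gene's own mean over the 6 arrays. Tox stands out with 6.89 in tumour 405 and 10.59 in non-tumour 483, and Nkg7, Gzmb, Cd22 and Ptprc are low on both arrays numbered 405.

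The T cell receptor and signalling genes all had point estimates slightly below 0, within the spread of the arrays. All 8 tested members had a difference below 0, from -0.36 to -0.10, with a median of -0.27. Below, values are in the order 405, 483 and 616 for tumour and 405, 483 and 623 for non-tumour. Cd3e, the CD3 epsilon chain without which the receptor does not reach the surface, lay at 7.06, 7.29 and 7.22 in tumour, against 7.24, 7.97 and 7.46 in non-tumour. Only non-tumour 405 fell within the tumours' range. The group means were 7.19 ± 0.12 in tumour and 7.55 ± 0.37 in non-tumour (SD, n = 3 each), a difference of -0.36 ± 0.23 (SE, limma adjusted p = 0.917). Its 95% interval, from -0.89 to 0.16, leaves room for a clear loss as well as for none.

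Cd3d, the CD3 delta chain, had 1 feature just over the filter, at 5.92, 6.36 and 6.48 in tumour, against 6.60, 6.69 and 6.00 in non-tumour. Non-tumour 623 was below tumour 483 and 616, and the difference was -0.18 ± 0.24 (SE). A second, dimmer Cd3d feature lay at 4.95, 5.80 and 5.26 in tumour, against 6.79, 6.02 and 5.94 in non-tumour, so there the groups did not overlap. Cd3g, the CD3 gamma chain, had 2 features, both below the filter. On the array without a filter it averaged 4.87 ± 0.27 in tumour and 5.17 ± 0.79 in non-tumour (SD, n = 3 each), and did not pass (limma adjusted p = 0.939).

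Cd4, the helper coreceptor, lay at 7.64, 8.23 and 7.98 in tumour, against 7.98, 8.27 and 8.42 in non-tumour, with tumour 405 lowest. Cd8a, the first chain of the killer coreceptor, was nearly flat at 7.35, 7.33 and 7.16 in tumour, against 7.57, 7.35 and 7.21 in non-tumour. Cd8b1, the second chain, spread far more: it lay at 6.55, 7.30 and 7.81 in tumour, against 6.87, 7.76 and 7.80 in non-tumour. Tumour 616 was thus its highest array and tumour 405 its lowest, with non-tumour 405 next. The differences were -0.28 ± 0.25 for Cd4, -0.10 ± 0.18 for Cd8a and -0.26 ± 0.37 for Cd8b1 (SE).

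Cd2, an adhesion molecule of T and NK cells, lay at 7.66, 7.72 and 7.56 in tumour, against 8.46, 7.77 and 7.63 in non-tumour. Non-tumour 405 alone was high. Cd5, which dampens receptor signals, lay at 7.56, 7.55 and 7.42 in tumour, against 7.77, 7.75 and 7.55 in non-tumour, and Zap70, the kinase that binds the phosphorylated CD3 chains, at 7.52, 7.26 and 7.24 in tumour, against 7.86, 7.64 and 7.37 in non-tumour. For both genes only non-tumour 623 reached the tumours' range. The differences were -0.31 ± 0.26 for Cd2, -0.18 ± 0.18 for Cd5 and -0.28 ± 0.21 for Zap70 (SE), with limma adjusted p = 0.917 for each.

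Averaged over the 8 genes, each array's deviation from the 6-array mean was -0.26, -0.04 and -0.06 log2 units in tumour, against 0.12, 0.23 and 0.01 in non-tumour. Every tumour array was below every non-tumour array. The groups overlapped, however, with median centring, where the tumours reached -0.05 and the non-tumours began at -0.06.

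Among the costimulatory, checkpoint and subset genes tested, Tox had the largest difference. Tox encodes an HMG-box factor needed for CD4 T cell development and tied to exhausted CD8 T cells. It lay at 6.89, 8.96 and 8.14 in tumour, against 10.20, 10.59 and 8.86 in non-tumour. The groups touched only where tumour 483 lay just above non-tumour 623. The means were 7.997 ± 1.04 in tumour and 9.88 ± 0.91 in non-tumour (SD, n = 3 each), a difference of -1.88 ± 0.60 (SE, 95% interval -3.27 to -0.49, unadjusted p = 0.0139 and adjusted p = 0.917, limma). The unadjusted p exceeded 0.05 without both arrays numbered 405, where the difference was -1.19 (limma, unadjusted p = 0.101 and adjusted p = 0.99998, a setting chosen after seeing the data). Tox passed over all genes only on the values as deposited, where the tested difference was -2.16 (limma adjusted p = 0.0334). Relative to the median gene that difference was -1.68, which was not itself tested. With median centring it was -1.62 and did not pass (limma adjusted p = 0.953). Tox was high, at 10.20, in non-tumour 405, an array where Nkg7 (5.67) and Ptprc (7.29) were low. Which cells the Tox signal came from was not tested.

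Tox had 2 further features, both below the filter. The second lay at 5.49, 5.84 and 5.07 in tumour, against 6.10, 6.54 and 5.91 in non-tumour, with every tumour below every non-tumour array. The third lay at 5.30, 4.999 and 5.40 in tumour, against 5.96, 6.59 and 5.40 in non-tumour, so tumour 616 and non-tumour 623 met. All 3 features were highest in non-tumour 483 and next in non-tumour 405, and with the filter dropped the gene's median feature differed by -0.62.

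**Figure D2:**
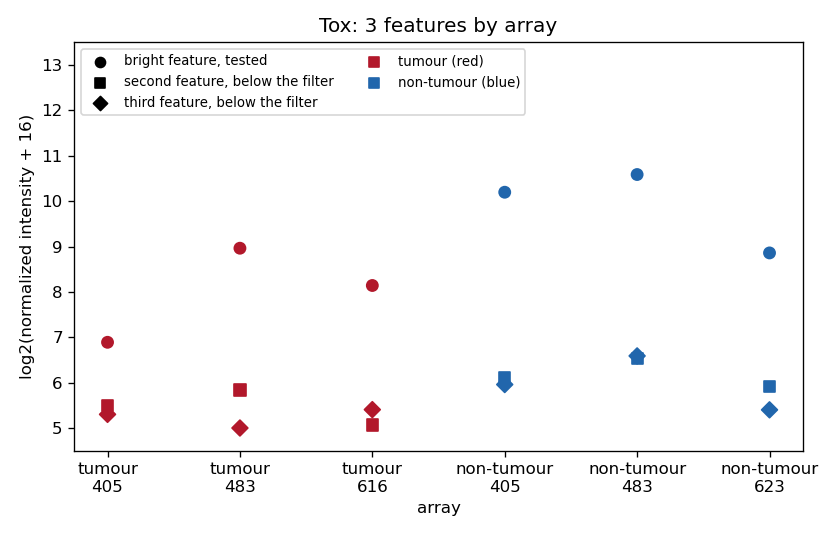
The 3 array features of Tox are plotted by array as log2(normalized intensity + 16), tumour in red and non-tumour in blue, with a marker for each feature. The bright feature lies at 6.89 to 8.96 in tumour and 8.86 to 10.59 in non-tumour, and both dim features are also highest in non-tumour 483.

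The other costimulatory and checkpoint genes had smaller differences. Icos, a costimulator of activated T cells, lay at 6.00, 6.59 and 6.27 in tumour, against 6.26, 6.60 and 7.51 in non-tumour, where non-tumour 623 alone was high. Cd27, a TNF receptor family costimulator, lay at 7.13, 7.19 and 7.30 in tumour, against 7.30, 7.61 and 7.70 in non-tumour. Tumour 616 and non-tumour 405 were level, and the rest were apart. Pdcd1, the checkpoint receptor PD-1, lay at 7.47, 7.10 and 7.18 in tumour, against 7.79, 7.69 and 7.19 in non-tumour. Cd28, the main costimulator of naive T cells, had the same level to within 0.33 log2 units on all arrays, at 7.10, 6.999 and 6.89 in tumour, against 7.15, 7.07 and 6.82 in non-tumour. The differences were -0.51 ± 0.32 for Icos, -0.33 ± 0.19 for Cd27, -0.30 ± 0.23 for Pdcd1 and -0.02 ± 0.18 for Cd28 (SE).

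All 5 tested genes of this group were below 0, with a median of -0.33. Without Tox, left out after its values were seen, the mean deviation was -0.15, -0.11 and -0.17 in tumour, against 0.05, 0.16 and 0.22 in non-tumour, and the groups stayed apart on each of the 3 scalings tried (both quantile normalizations and median centring). The scalings reuse the same arrays and so do not test the separation. How often other sets of genes separate in this way was not computed. Cxcr6, the receptor of liver-resident T and NKT cells, was below the filter and averaged 5.72 ± 0.52 in tumour and 5.71 ± 0.55 in non-tumour (SD, n = 3 each). By array Cxcr6 lay at 5.13, 6.11 and 5.91 in tumour, against 5.08, 6.02 and 6.04 in non-tumour, lowest on both arrays numbered 405. Its ligand gene Cxcl16 was bright, at 8.28, 10.06 and 9.57 in tumour, against 8.82, 9.93 and 9.55 in non-tumour (named after its values were seen).

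**Figure D3:**
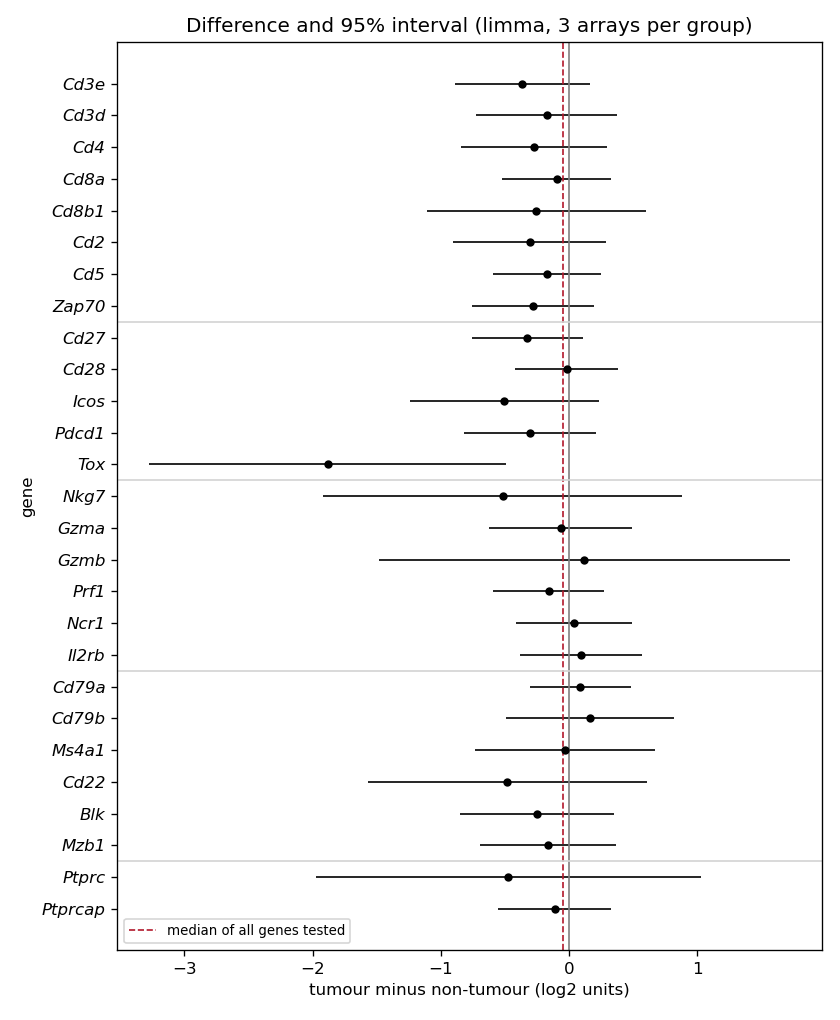
Points give tumour minus non-tumour for each tested gene in log2 units and bars the 95% interval from limma with 3 arrays per group; the dashed line is the median of all genes tested (-0.05). Only the interval of Tox, from -3.27 to -0.49, lies wholly below 0.

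Cytotoxic and NK genes had no common direction between tumour and non-tumour, and 3 of them were lowest on both arrays numbered 405. Of 6 tested members 3 were above 0 and 3 below, with a median of -0.01 and differences from -0.52 to 0.12. Gzmb, the granzyme that activates caspases in the target cell, lay at 5.43, 7.29 and 7.13 in tumour, against 5.004, 6.91 and 7.58 in non-tumour. Both arrays numbered 405 were over 1 log2 unit below the other 4. Nkg7, a granule membrane protein of killer cells, lay at 5.61, 7.19 and 6.69 in tumour, against 5.67, 8.03 and 7.34 in non-tumour, again with both 405 arrays lowest. The differences were 0.12 ± 0.70 for Gzmb and -0.52 ± 0.61 for Nkg7 (SE), so that changes of over 1 log2 unit in either direction lie within the interval of Gzmb (-1.49 to 1.72).

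Prf1, the pore-forming perforin, was also lowest on both 405 arrays but in a narrow band, at 6.72, 7.20 and 7.06 in tumour, against 7.06, 7.16 and 7.24 in non-tumour. Gzma, a granzyme abundant in NK cells, did not, at 7.21, 7.37 and 6.60 in tumour, against 7.03, 7.36 and 6.98 in non-tumour. Il2rb, the shared receptor chain for IL-2 and IL-15, lay at 7.73, 8.003 and 7.63 in tumour, against 7.81, 7.78 and 7.50 in non-tumour. Tumour 483 was its highest array. Ncr1, the NK receptor NKp46, lay at 6.62, 6.43 and 6.08 in tumour, against 6.44, 6.46 and 6.12 in non-tumour, near the filter on all arrays. Klrk1, the activating receptor NKG2D, was below the filter at 5.07 ± 0.29 in tumour and 5.01 ± 0.30 in non-tumour (SD, n = 3 each).

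The start regions of Gzmb, Prf1 and Nkg7 are shown because these granule genes shared a short motif that the list was not chosen for, and that of Ptprc as a leukocyte gene whose window lacks it. The windows span 300 bases, from upstream of a gene's start to 50 bases after it, are taken from RefSeq on GRCm38.p6, which is not the arrays' build, and were found for 22 of the 34 members. Ptprc has 2 windows, of which the more upstream is printed. Capitals mark the RUNX core TGTGGT, or ACCACA on the other strand, and the ETS core GGAAGT, or ACTTCC on the other strand. The 2 motifs do not overlap in the windows printed.
Gzmb (chr14:56262285-56262584, minus strand): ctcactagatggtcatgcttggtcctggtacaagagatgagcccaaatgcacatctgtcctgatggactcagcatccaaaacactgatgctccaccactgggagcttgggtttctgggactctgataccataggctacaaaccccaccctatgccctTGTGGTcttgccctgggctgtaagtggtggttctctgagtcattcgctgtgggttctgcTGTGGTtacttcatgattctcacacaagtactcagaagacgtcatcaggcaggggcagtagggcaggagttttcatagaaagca
Prf1 (chr10:61297586-61297885, plus strand): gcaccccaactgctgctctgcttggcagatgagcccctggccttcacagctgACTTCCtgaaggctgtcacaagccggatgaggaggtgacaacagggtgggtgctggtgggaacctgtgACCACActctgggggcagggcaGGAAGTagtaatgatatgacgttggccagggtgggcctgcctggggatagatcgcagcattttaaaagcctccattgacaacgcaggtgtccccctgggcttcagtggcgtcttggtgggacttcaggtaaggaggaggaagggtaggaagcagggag
Nkg7 (chr7:43436888-43437187, plus strand): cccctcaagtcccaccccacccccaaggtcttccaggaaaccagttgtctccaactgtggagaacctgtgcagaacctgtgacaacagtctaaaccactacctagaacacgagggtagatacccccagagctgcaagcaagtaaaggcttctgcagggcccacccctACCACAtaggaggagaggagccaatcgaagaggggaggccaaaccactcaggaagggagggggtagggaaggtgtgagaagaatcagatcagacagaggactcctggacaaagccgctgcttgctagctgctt
Ptprc (chr1:138175256-138175555, minus strand): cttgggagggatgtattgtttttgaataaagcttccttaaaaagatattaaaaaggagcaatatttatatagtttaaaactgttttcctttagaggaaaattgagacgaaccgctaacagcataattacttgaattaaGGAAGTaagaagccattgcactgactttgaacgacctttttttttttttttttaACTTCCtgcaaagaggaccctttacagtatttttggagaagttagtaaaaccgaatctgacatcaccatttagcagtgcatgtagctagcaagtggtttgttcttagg

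The RUNX core was present in the window of all 7 cytotoxic and NK members that had one: Gzma, Gzmb, Prf1, Nkg7, Ncr1, Klrk1 and Klrb1c. It was present in 2 of 7 T cell receptor and signalling genes (Lck and Zap70), 1 of 5 costimulation and subset genes (Cxcr6), 0 of 2 B cell genes and not in Ptprc, and in 18.9% of all 27025 genes with a window. The ETS core was present in 5 of the 7 T cell receptor and signalling genes, 2 of the 7 cytotoxic and NK genes and 26.5% of all genes. A match of 6 letters is a description of the sequence and not a binding site, and whether it bears on the values was not tested.

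B and plasma cell genes showed no common direction: 2 of 6 tested members were above 0 and 4 below, with a median of -0.10. Cd22, an inhibitory receptor of B cells, lay at 6.66, 7.81 and 7.30 in tumour, against 6.71, 8.52 and 7.99 in non-tumour. Ms4a1, which encodes CD20, lay at 5.93, 6.49 and 6.53 in tumour, against 5.70, 6.55 and 6.81 in non-tumour. Cd79b, a signalling chain of the B cell receptor, lay at 7.61, 7.85 and 7.62 in tumour, against 6.93, 7.97 and 7.70 in non-tumour. In all 3 genes both arrays numbered 405 were the lowest, and for Cd79b non-tumour 405 stood well below the rest. The differences were -0.48 ± 0.47 for Cd22, -0.04 ± 0.31 for Ms4a1 and 0.16 ± 0.28 for Cd79b (SE).

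The other B cell genes went another way or stayed flat. Cd79a, the partner chain of Cd79b, lay at 6.82, 6.56 and 6.80 in tumour, against 6.49, 6.79 and 6.64 in non-tumour, a range of 0.33. Blk, a Src family kinase of B cells, lay at 7.49, 7.47 and 7.25 in tumour, against 8.13, 7.65 and 7.19 in non-tumour. Mzb1, an endoplasmic reticulum protein of marginal zone B and plasma cells, lay at 7.25, 7.42 and 7.40 in tumour, against 7.83, 7.64 and 7.09 in non-tumour. Blk and Mzb1 were highest in non-tumour 405, where Cd79b and Ms4a1 were lowest.

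Ptprc, the phosphatase CD45 on all white blood cells, lay at 7.16, 9.12 and 8.19 in tumour, against 7.29, 9.51 and 9.10 in non-tumour. Both 405 arrays were far below the others, and tumour 616 lay between. The means were 8.16 ± 0.98 in tumour and 8.63 ± 1.18 in non-tumour (SD, n = 3 each), and the difference of -0.47 ± 0.65 (SE, limma adjusted p = 0.920) is smaller than the 2.09 by which the arrays numbered 483 exceeded those numbered 405 on average. Ptprcap, a small protein bound to CD45, stayed within 0.54 log2 units, at 6.81, 7.03 and 7.35 in tumour, against 7.15, 7.19 and 7.19 in non-tumour.

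The members varied over the arrays to different degrees, and are described on either side of a range of 1 log2 unit, a limit set after the values were seen and with no gap at it. In 9 of 27 members the 6 arrays spanned that or more, beside 37.5% of all genes: Tox, Gzmb, Nkg7, Ptprc, Cd22, Icos, Cd8b1, Ms4a1 and Cd79b. In the other 18 they spanned 0.33 to 0.94, next to 1.04 for Cd79b. Of the 9 wide genes, all but Tox had tumour 405 and non-tumour 405 as their lowest arrays (8 of 9), against 1 of the 18 narrow genes, Prf1. Range and lowest arrays come from the same values, and a fall on those arrays itself widens the range, so the split does not test the pattern. Some margins were thin: Prf1 lay at 7.059 in non-tumour 405 and 7.065 in tumour 616. Icos lay at 6.264 in non-tumour 405 and 6.270 in tumour 616, and its range was wide through a high non-tumour 623, at 7.51. Cd79b lay at 7.606 in tumour 405 and 7.624 in tumour 616. The 9 such members of 27 stand beside 9.87% of all genes of any range, and the share among all wide genes was not computed. Among the 9 wide genes, the distance between numbers 483 and 405 exceeded that between tumour and non-tumour in 7, Tox and Icos being the exceptions. The same pair of arrays was lowest for 12 of 20 other shared leukocyte genes, 9 of 14 macrophage markers and 7 of 10 neutrophil markers. It was lowest for 7 of 29 other T cell genes, 3 of 16 other cytotoxic and NK genes, 2 of 18 other B and plasma cell genes, 1 of 8 dendritic cell, 1 of 7 hepatocyte and 1 of 10 endothelial markers.

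**Figure D4:**
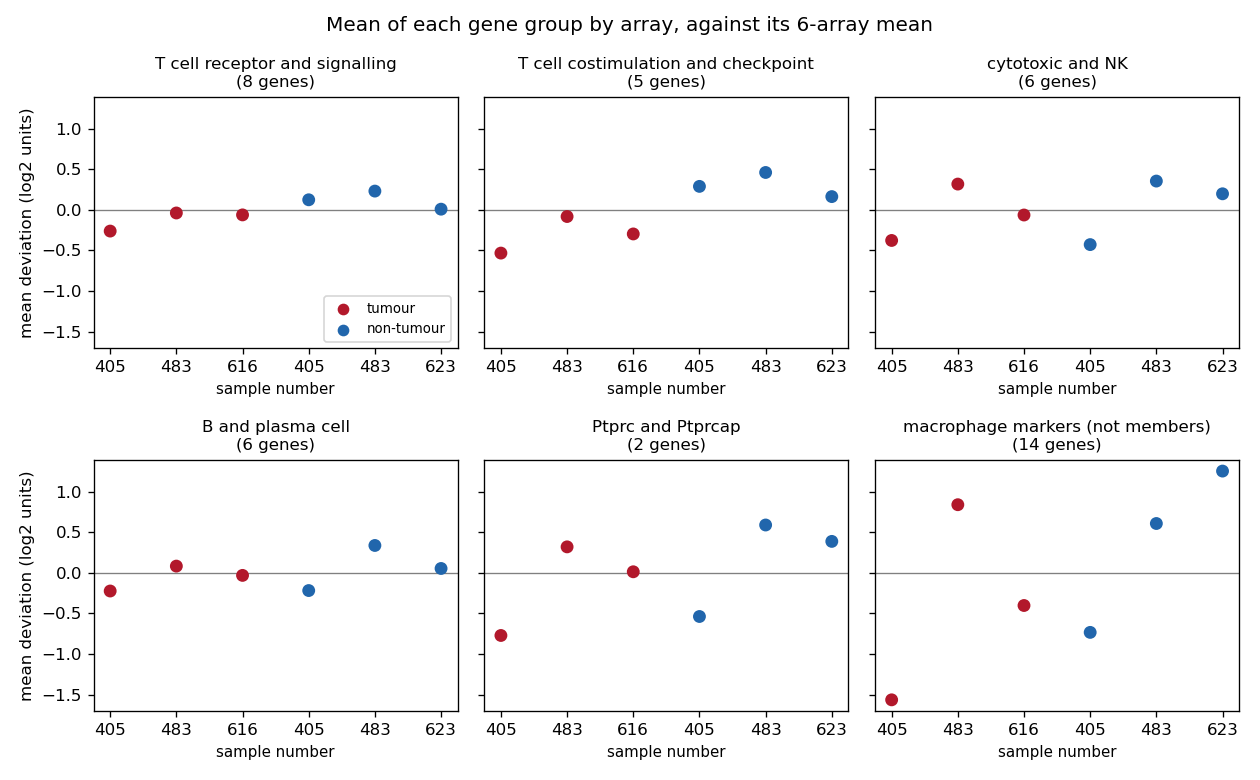
Each panel gives the mean over a gene group of the deviation from each gene's 6-array mean, in log2 units, by sample number, tumour in red on the left and non-tumour in blue on the right. The 2 T cell panels have tumour below non-tumour (-0.26 to -0.04 against 0.01 to 0.23 for receptor and signalling genes). With median centring the receptor and signalling genes overlapped, and the other T cell genes, not shown, overlapped too. The cytotoxic, B cell, Ptprc and macrophage panels are low on both arrays numbered 405, where the macrophage markers stand at -1.56 in tumour and -0.73 in non-tumour.

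Markers of other white blood cells also varied between the arrays. The summed intensity of the 14 macrophage and Kupffer cell markers measured of 15 ran from 2537 to 16045 in tumour and from 5480 to 19544.5 in non-tumour. That of the 10 neutrophil markers tested of 11 ran from 976 to 2911 in tumour and from 1269 to 1915 in non-tumour, and that of the 8 dendritic cell markers measured of 10 from 1634 to 2387 in tumour and from 1848 to 3401 in non-tumour. Tumour 405 was lowest in each. None of the macrophage markers was at 0, and the part of these cells in the lymphocyte values was not tested.

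Leaving out any 1 array gave 0 called members (limma) but moved the unadjusted counts. Without non-tumour 405, 6 members were lower at an unadjusted p under 0.05, beside 1.35% of all genes, and 0 were higher, beside 1.42%. They were Cd3e (-0.55), Cd27 (-0.47), Icos (-0.79), Tox (-1.80), Nkg7 (-1.23) and Cd22 (-1.06), all with limma adjusted p = 0.998. For all of these but Tox, non-tumour 405 was the lowest non-tumour array, so leaving it out pushes the difference down. Tumour 405, the lowest array for all 6, stayed in, so the count does not test for a loss in tumour. Without non-tumour 623, the array that stood apart in sex-linked RNA, Tox (-2.36) and Pdcd1 (-0.46) were lower unadjusted, 2 of 26 members beside 4.22% of all genes. On the values as deposited 7 of 27 members were lower unadjusted, beside 8.02% of all genes, and without the filter 2 of 30, beside 1.18%. Within number 405 tumour lay below non-tumour for 21 of the 27 members, within number 483 for 23, and in both for 19. Only the last count has a share beside it, 33.5% of all genes in both, and none was computed for either number alone. The median was -0.21 within 405, beside -0.11 over all genes, and -0.18 within 483, beside -0.04.

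Other lymphocyte genes, listed beside the members, were not called either: 0 of 29 other T cell genes, 0 of 16 other cytotoxic and NK genes and 0 of 18 other B and plasma cell genes passed in either direction (limma), with 0, 0 and 1 of them under an unadjusted p of 0.05. Cd7 and Txk stand in the first 2 of these lists. The medians were -0.16 for T cell, -0.13 for cytotoxic and NK and -0.26 for B and plasma cell genes, and 25 of 29, 12 of 16 and 16 of 18 were below 0. By array, the mean deviation of the 29 other T cell genes was -0.23, 0.0087 and -0.08 in tumour, against 0.08, 0.24 and -0.02 in non-tumour. Tumour 483 was thus above non-tumour 623, unlike in the T cell members. The gene under that p was Vpreb3, of the B and plasma cell list, at 10.03, 7.41 and 8.92 in tumour, against 6.70, 6.34 and 7.44 in non-tumour. Tumour 483 lay just under non-tumour 623, and the difference was 1.97 ± 0.61 (SE, unadjusted p = 0.0115 and adjusted p = 0.917, limma). The differences of the 6 B and plasma cell members ran from -0.48 for Cd22 to 0.16 for Cd79b, with 4 of them below 0.

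The 20 other shared leukocyte genes were all below 0, with a median of -0.43 and 0 called. Itgal, the integrin chain of LFA-1, was low on both 405 arrays as Ptprc was: it lay at 5.58, 8.29 and 7.49 in tumour, against 6.06, 8.71 and 8.998 in non-tumour. Ccl5, a chemokine of activated T and NK cells, lay at 5.28, 8.35 and 7.88 in tumour, against 5.93, 9.27 and 8.64 in non-tumour, the same order as Nkg7. Both were named after their values were seen.

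Ligands of the members' receptors were measured for 18 of 22 genes and 0 were called. Icosl, the ligand of ICOS, had the smallest p: it lay at 6.98, 7.56 and 7.83 in tumour, against 6.10, 6.29 and 7.35 in non-tumour, a difference of 0.88 ± 0.36 (SE, unadjusted p = 0.0401 and adjusted p = 0.917, limma). Its receptor gene Icos ran the other way at -0.51 ± 0.32, also without passing. Of 6 lymphocyte chemokines measured of 10, all were below 0, from -0.77 to -0.05, and 0 were called, with 0 under an unadjusted p of 0.05.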

How the data were processed

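Affymetrix arrays of biotin-labelled total RNA were made from 6 liver samples. The deposited values are intensities on a linear scale that the authors summarised and normalized with PLIER, per the labels, on mm9, per the submitters' processing notes. No PLIER version is given in the sources used here. Of 238609 features, 24343 had a single symbol in the platform annotation, 1797 had several and 212469 had none. By Entrez number 23782 were matched to the mouse gene table, which changed 0 symbols.

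Features with 1 symbol were quantile-normalized and taken as log2(intensity + 16). Those with a mean at or above the 25th percentile, an intensity of 62.3, were kept (18257 features), and the median per symbol gave 16810 genes. Each of the 27 tested members rested on 1 kept feature. The difference, tumour minus non-tumour, was fitted in limma 3.58.1 (R 4.3.3) by lmFit and eBayes with an intensity trend and 4.17 prior degrees of freedom, with no covariates, Benjamini-Hochberg adjustment over all genes and a threshold of 0.05. The steps were tested on simulated data. An exact permutation test of 3 against 3 cannot go below p = 0.1.

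The members, lists and settings were chosen with earlier results of these data known. The 27 members that passed the filter are given by array, and genes of the lists of other lymphocyte genes, ligands and chemokines if called or among the 3 smallest unadjusted p below 0.05 in a direction in their list, with exceptions stated. Markers of other cell types were used as lists. Alternatives were the deposited scale, median centring, other normalization features, pseudocount, filter, feature choice and variance model, sample number as a block, and each array left out.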

Additional observations from a re-analysis of the deposited data

How the results depend on the processing

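On the values as deposited, where the median gene lay at -0.48 and the fit had no gene-specific spread, 14 genes were higher and 44 lower over all genes, 1 member (Tox) was called lower, and 7 were lower at an unadjusted p under 0.05 (8.02% of all genes). Without a filter 2 members, Tox and Cd3d, were lower unadjusted (1.18% of all genes) and Cd79a turned to -0.0104. With the sample number as a replicate block, Gzma turned to 0.0952 and Ms4a1 to 0.0841, Tox was -2.47 (limma adjusted p = 0.304) and no gene passed (smallest adjusted p = 0.0532, limma). The numbers were not taken as pairs, because the labels state no shared animal behind a shared number. Residuals correlated at 0.29 for 405 and -0.01 for 483, beside -0.34 to 0.25 between tumour and non-tumour arrays of unlike number. With 3 arrays per group these values cannot settle whether the numbers mark pairs. Leaving out each array, the members lower unadjusted numbered 1 to 6, and differences crossed 0 for Cd8a (-0.17 to 0.00025), Cd8b1 (-0.59 to 0.0807), Cd28 (-0.11 to 0.0487), Gzma (-0.22 to 0.17), Gzmb (-0.64 to 0.73), Ncr1 (-0.0862 to 0.19), Il2rb (-0.0152 to 0.17), Cd79b (-0.15 to 0.38), Ms4a1 (-0.36 to 0.16), Ptprc (-1.21 to 0.0286) and Ptprcap (-0.25 to 0.0161). Without both arrays numbered 405, tried after seeing the data, Cd3d was 0.0744, Gzmb -0.0405, Ncr1 -0.0344, Cd79a -0.0374, Cd79b -0.11, Mzb1 0.0462 and Ptprcap 0.0025. The causes were not tested. Tox stayed below 0 in every setting tried (adjusted p 0.0334 to 0.99998, limma). Of the 27 tested members, 12 lay below the median feature, so dim signal and 3 arrays per group limit the precision.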
